A study of Mus musculus with 6 samples.

Results

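The surface Toll-like receptors and their lipopolysaccharide (LPS) co-receptors were compared between the dendritic and the macrophage populations that grow together when mouse bone marrow is kept in GM-CSF, a cytokine that drives myeloid cells to divide and mature. The set was chosen by gene name: Tlr1, Tlr2, Tlr4, Tlr5, Tlr6, Cd14, Ly96, Cd180 and Ly86. Of these 9 genes, 8 had a probe set with a single gene symbol, out of 19938 genes named in this way. Tlr5, the flagellin receptor, was not analysed here. Each of the 8 had 1 probe set, and no filter on low values was applied.

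RNA was hybridised to 6 Affymetrix Mouse Gene 1.0 arrays, 3 of cells labelled dendritic and 3 of cells labelled macrophage. Both populations came from marrow of the tibia and femur of C57B/6 mice, kept for 6 days with 20 ng/ml of recombinant GM-CSF, and both were unstimulated, so that no microbial ligand is named in either group. The sources used here do not give the sex and age of the mice, how the populations were separated, or whether replicates came from separate mice or cultures. What the p-values measure is thus the spread among these 6 arrays, which may be technical.

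Toll-like receptors are membrane proteins that bind conserved parts of microbes through a leucine-rich outer domain and signal through an inner domain called TIR. TLR4 recognises LPS of Gram-negative bacteria, but only together with the small secreted protein MD-2, encoded by Ly96, which holds the lipid. CD14 hands LPS to that complex. TLR2 forms heterodimers with TLR1 or TLR6 and senses bacterial lipoproteins. CD180 (RP105) resembles TLR4 outside the cell, lacks a TIR domain and pairs with MD-1, encoded by Ly86, the relative of MD-2. In mouse myeloid cells CD180 with MD-1 is known to restrain TLR4 signalling, and in B cells it promotes their activation.

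All levels are log2 values made with RMA, the authors' normalization, which brings the arrays to a common distribution, and differences are taken as dendritic minus macrophage means of these log2 values. A gene is said to be called when its Benjamini-Hochberg adjusted p over all 19938 genes in limma was under 0.05. Array medians over all probe sets were 4.79 to 4.96. The files hold no detection calls, and RMA compresses differences where probe sets are dim. A fold here is a ratio on this scale and not of transcript number. In RNA from whole populations, fewer cells that express a gene and less RNA of it per cell cannot be told apart. Marker genes of the labels were checked first: 5 of 7 dendritic markers were higher in the dendritic arrays, and all 6 measured macrophage markers were lower there. The exceptions among the dendritic markers, Xcr1 and Clec9a, belong to the cross-presenting type 1 lineage. Genes of that lineage did not all go this way, as Batf3 was higher, at 9.65 in dendritic and 6.97 in macrophage arrays. Xcr1 was at 3.73 in dendritic and 3.56 in macrophage arrays and was not called, and Clec9a was at 4.26 in dendritic arrays, against 6.84 in macrophage arrays.

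Of the 8 measured members, 7 were lower in the dendritic population and none was higher. The largest differences were those of Cd14, Cd180, Tlr4 and Tlr2, from 27.3-fold to 8.86-fold, while Tlr6 and Tlr1 differed by about 3-fold and Ly86 by 1.60-fold. Ly96 was the one member that did not pass the test. These 7 of 8 calls stand against a background in which 11.6% of all genes tested were called lower, 9.98% were called higher and 21.6% were called in either direction. A called fall of at least 3 on the log2 scale was seen in 4 of the 8, and in 0.863% of all genes. The arrays of the populations did not overlap for 7 of the 8, against 34.0% of all genes. The median difference over the 8 was -2.40, where the median over all genes was 0.03.

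**Figure D1:**
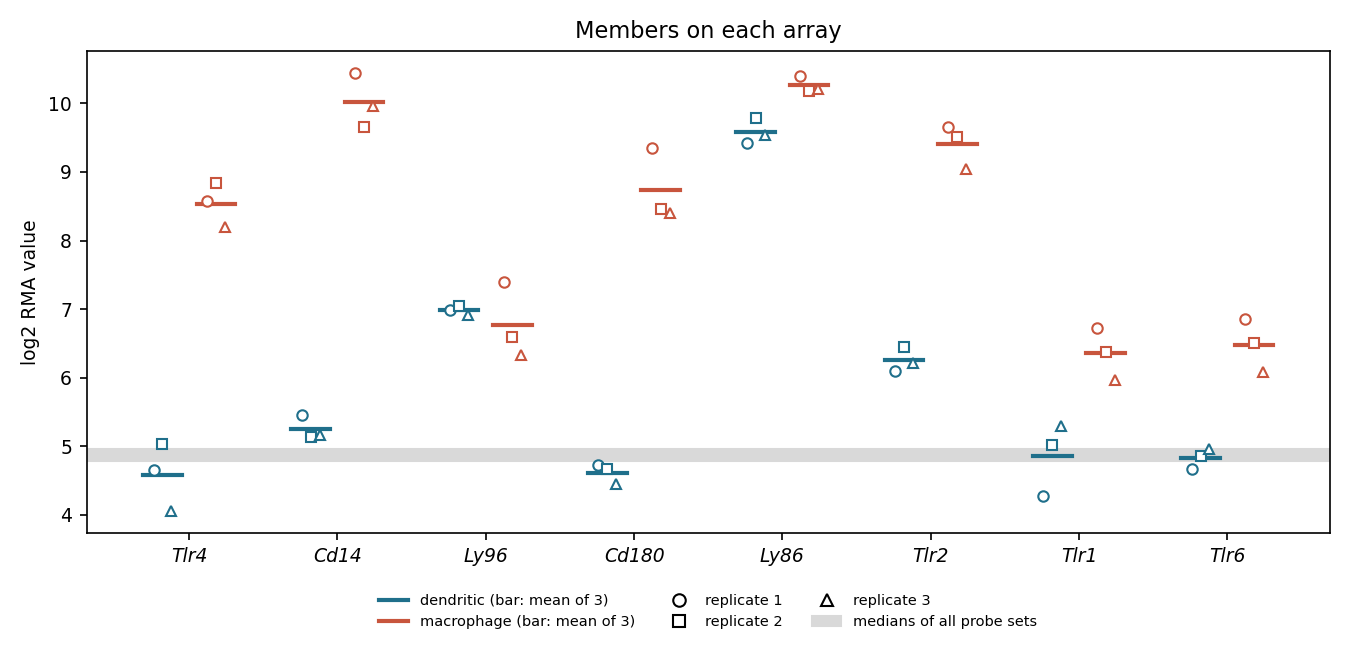
Log2 RMA value (vertical axis) of each member on each array. Dendritic arrays are drawn left of macrophage arrays, symbols give the replicate number, bars the mean of 3 arrays, and the grey band the range of the arrays' medians over all probe sets, 4.79 to 4.96. Dendritic and macrophage arrays are apart for every member except Ly96, whose dendritic arrays (6.91 to 7.05) lie within the span of the macrophage arrays (6.32 to 7.40).

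Among the LPS receptor genes, the signalling chain Tlr4 had log2 values of 4.65, 5.03 and 4.06 in the dendritic arrays, against 8.58, 8.83 and 8.19 in the macrophage arrays. All dendritic values of Tlr4 were thus near or below the median of all probe sets, and all macrophage values were more than 3 units above it. The difference was -3.96 ± 0.25 (SE, n = 3 arrays per population), or 15.5-fold (limma adjusted p = 7.83e-06).

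Cd14, which encodes the co-receptor that transfers LPS, had the largest difference of the set. It was at 5.46, 5.14 and 5.16 in the dendritic arrays, against 10.45, 9.66 and 9.96 in the macrophage arrays. The gap between the lowest macrophage and the highest dendritic array was far wider than the spread within either population. The difference was -4.77 ± 0.20 (SE), or 27.3-fold, and was the 32nd lowest among the 19938 genes (limma adjusted p = 7.71e-07).

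Ly96, which encodes the LPS-binding subunit MD-2, was not called, unlike the other genes of this receptor. Its log2 values were 6.99, 7.05 and 6.91 in the dendritic arrays and 7.40, 6.59 and 6.32 in the macrophage arrays. Macrophage replicate 1 was above all dendritic arrays and the other macrophage arrays were below them, so the populations overlapped. The difference was 0.21 ± 0.25 (SE; 95% interval -0.34 to 0.77; limma adjusted p = 0.683). Ly96 was 0.53 higher in the dendritic population and was called when macrophage replicate 1 was left out (adjusted p = 0.0387), and 0.52 higher without replicate 1 of both populations (adjusted p = 0.0319). Without macrophage replicate 3 the difference was -0.00885 (adjusted p = 0.991). Over all alternatives its adjusted p ranged from 0.0319 to 0.991.

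The genes of the CD180 complex also differed by unequal amounts. Cd180 was at 4.72, 4.66 and 4.45 in the dendritic arrays, against 9.35, 8.45 and 8.41 in the macrophage arrays. Each dendritic value was below the lowest array median, and each macrophage value was well above the highest. The difference was -4.12 ± 0.24 (SE), or 17.4-fold (limma adjusted p = 4.42e-06).

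Its partner Ly86 was bright in both populations, at 9.43, 9.79 and 9.54 in the dendritic arrays and 10.40, 10.18 and 10.21 in the macrophage arrays. Each dendritic array was below each macrophage array, though the closest pair was only 0.39 apart. The difference was -0.67 ± 0.14 (SE), or 1.60-fold (limma adjusted p = 0.00772), and the call was kept in all 16 alternative settings, with a difference between -0.78 and -0.53. Cd180 and Ly86 encode the partners of 1 complex but differed by very unequal amounts between the populations, and the 250 bases upstream of their annotated starts are shown to set the genes side by side (RefSeq, GRCm38.p6, both on the plus strand of chromosome 13, chr13:102693297-102693546 for Cd180 and chr13:37345095-37345344 for Ly86).
Cd180: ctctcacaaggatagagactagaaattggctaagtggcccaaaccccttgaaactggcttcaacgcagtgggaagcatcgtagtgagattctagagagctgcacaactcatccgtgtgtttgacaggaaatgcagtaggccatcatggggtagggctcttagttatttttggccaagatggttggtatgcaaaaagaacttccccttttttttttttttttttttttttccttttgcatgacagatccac
Ly86: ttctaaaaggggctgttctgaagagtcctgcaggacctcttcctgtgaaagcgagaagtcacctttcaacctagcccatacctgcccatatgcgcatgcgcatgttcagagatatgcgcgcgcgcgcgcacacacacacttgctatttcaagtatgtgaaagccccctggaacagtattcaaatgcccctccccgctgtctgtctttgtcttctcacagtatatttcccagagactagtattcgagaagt

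Neither window holds a letter in capitals, because none of the 5 motifs searched on both strands was found in it. The motifs were GAGGAA (a core of sites of the myeloid factor PU.1, in 23.1% of 27025 upstream windows of the same length), TGANTCA (AP-1, 6.85%), TTGCNNAA (C/EBP, 9.55%), GAAANNGAA (interferon response elements, 7.16%) and GGGAATT (a part of NF-kB sites, 3.16%). Windows were found for 6 members, Tlr1, Tlr2, Tlr5, Tlr6, Cd180 and Ly86, and a match was found for Tlr1 and Tlr2. Only the windows of Cd180 and Ly86 ended at the annotated start of the gene. These are descriptions of letters in a short window and say nothing about binding in these cells.

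The lipoprotein receptors were all lower in the dendritic population, with the shared chain differing most. Tlr2, which joins either partner, was at 6.10, 6.44 and 6.22 in the dendritic arrays, against 9.66, 9.51 and 9.04 in the macrophage arrays. Unlike Tlr4 and Cd180, its dendritic values stayed above the median of all probe sets, by more than 1 unit on each array. The difference was -3.15 ± 0.18 (SE), or 8.86-fold (limma adjusted p = 4.25e-06).

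Tlr1, the partner for triacylated lipoproteins, was at 4.28, 5.02 and 5.30 in the dendritic arrays, against 6.72, 6.38 and 5.97 in the macrophage arrays. The highest dendritic and the lowest macrophage array were 0.67 apart. The difference was -1.49 ± 0.28 (SE), or 2.82-fold (limma adjusted p = 0.00404), and was -1.02 without replicate 1 of both populations (adjusted p = 0.00318).

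Tlr6, the partner for diacylated lipoproteins, was at 4.67, 4.85 and 4.96 in the dendritic arrays, against 6.85, 6.50 and 6.09 in the macrophage arrays. Its arrays separated more widely than those of Tlr1, with 1.12 between the closest dendritic and macrophage values. The difference was -1.65 ± 0.19 (SE), or 3.14-fold (limma adjusted p = 0.000298). Tlr1 and Tlr6 are close relatives that lie next to each other on chromosome 5 in GRCm38.p6, and whether their probe sets take signal from each other was not tested.

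The matches in the windows of Tlr1 and Tlr2 are shown in 30-base stretches, with the matched letters in capitals (RefSeq, GRCm38.p6, minus strand, chr5:64933564-64933593 for Tlr1 and chr3:83841761-83841790 for Tlr2). Neither window ends at the annotated start of its gene. In Tlr1 the capitals are the PU.1 core, and in Tlr2 they are 2 overlapping matches of the NF-kB motif on opposite strands.
Tlr1: aattaaatgttgGAGGAAgtaggagcttga
Tlr2: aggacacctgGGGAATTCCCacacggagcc

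**Figure D2:**
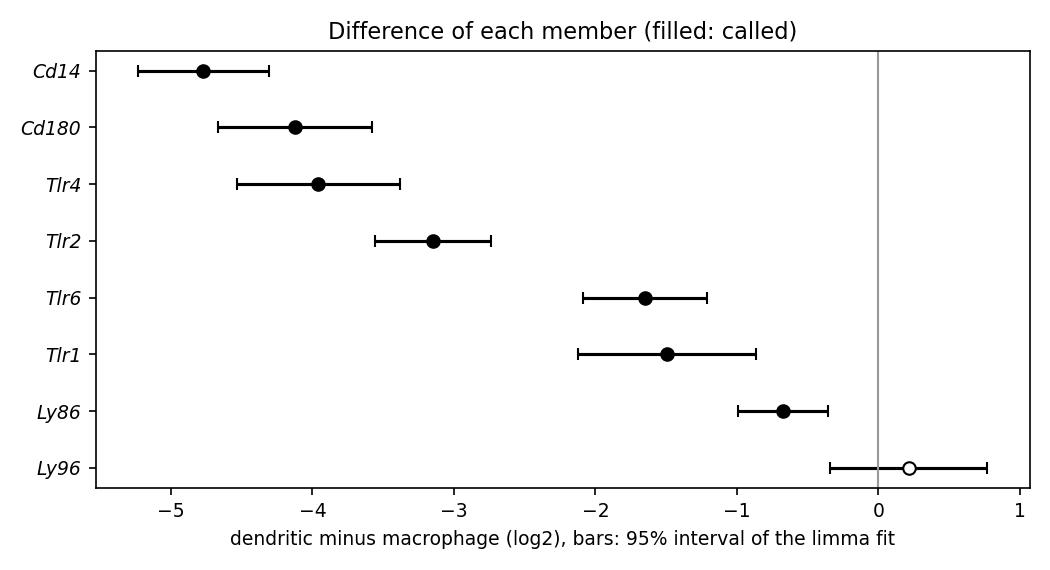
Dendritic minus macrophage difference of each member on the log2 scale (horizontal axis), from the limma fit, with the 95% interval as bars and called genes as filled points. From Cd14 at -4.77 to Ly86 at -0.67 the intervals lie below 0, and that of Ly96 spans 0 (-0.34 to 0.77).

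Partners were then compared within each array, by taking the log2 value of one gene minus that of the other, so that a shift common to an array drops out. Such a value says nothing of which gene is more abundant, and only its change between populations is read. The test was a 2-sided exact permutation test over the 6 arrays, which cannot give a p under 0.1 with 3 arrays per population, adjusted over the 7 pairs compared. No pair could therefore pass 0.05, and sizes are read against the spread.

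The receptor chains differed more between the populations than their secreted partners. Tlr4 minus Ly96 was -2.41 ± 0.42 in dendritic arrays, against 1.77 ± 0.54 in macrophage arrays (SD, n = 3 each), a change of -4.17, without overlap (exact permutation p = 0.1, adjusted p = 0.175). Cd180 minus Ly86 was -4.98 ± 0.23 in dendritic and -1.53 ± 0.41 in macrophage arrays, a change of -3.45, also without overlap (exact permutation p = 0.1, adjusted p = 0.175). Both changes were several times the SD within either population. The chains themselves, Tlr4 minus Cd180, were at -0.03 ± 0.38 in dendritic and -0.20 ± 0.57 in macrophage arrays, a change of 0.17 that was smaller than the spread (exact permutation p = 0.8). Its sign turned when dendritic replicate 2 (-0.0320) or macrophage replicate 1 (-0.117) was left out.

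Cd14 minus Tlr4 was 0.68 ± 0.51 in dendritic and 1.49 ± 0.57 in macrophage arrays (SD, n = 3 each), a change of -0.81 with overlapping arrays (exact permutation p = 0.2, adjusted p = 0.28). Within replicate numbers 1, 2 and 3 the dendritic minus macrophage differences of this pair were -1.06, -0.72 and -0.66. The sign was the same in all 3 (exact sign permutation p = 0.25, the smallest that 3 numbers allow). It was also the same in all 3 for every other pair except Tlr4 minus Cd180 and Tlr1 minus Tlr6. Whether the numbers pair the arrays is unclear. For the lipoprotein receptors, Tlr2 minus Tlr1 was 1.39 ± 0.46 in dendritic and 3.05 ± 0.10 in macrophage arrays, and Tlr2 minus Tlr6 was 1.42 ± 0.17 in dendritic and 2.92 ± 0.10 in macrophage arrays. Tlr2 thus changed more than Tlr1, by -1.65, and more than Tlr6, by -1.50, without overlap in either case (exact permutation p = 0.1, adjusted p = 0.175 for each). Tlr1 minus Tlr6 was 0.03 ± 0.38 in dendritic and -0.12 ± 0.0031 in macrophage arrays, a change of 0.16 (exact permutation p = 0.4). In the macrophage arrays the 3 values of that pair were -0.123, -0.126 and -0.120, so Tlr1 and Tlr6 varied together there, but not in the dendritic arrays. Tlr2, on chromosome 3, also followed both in the macrophage arrays, but less closely, with an SD of 0.10 for each pair. Why Tlr1 and Tlr6 were so close there was not tested.

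**Figure D3:**
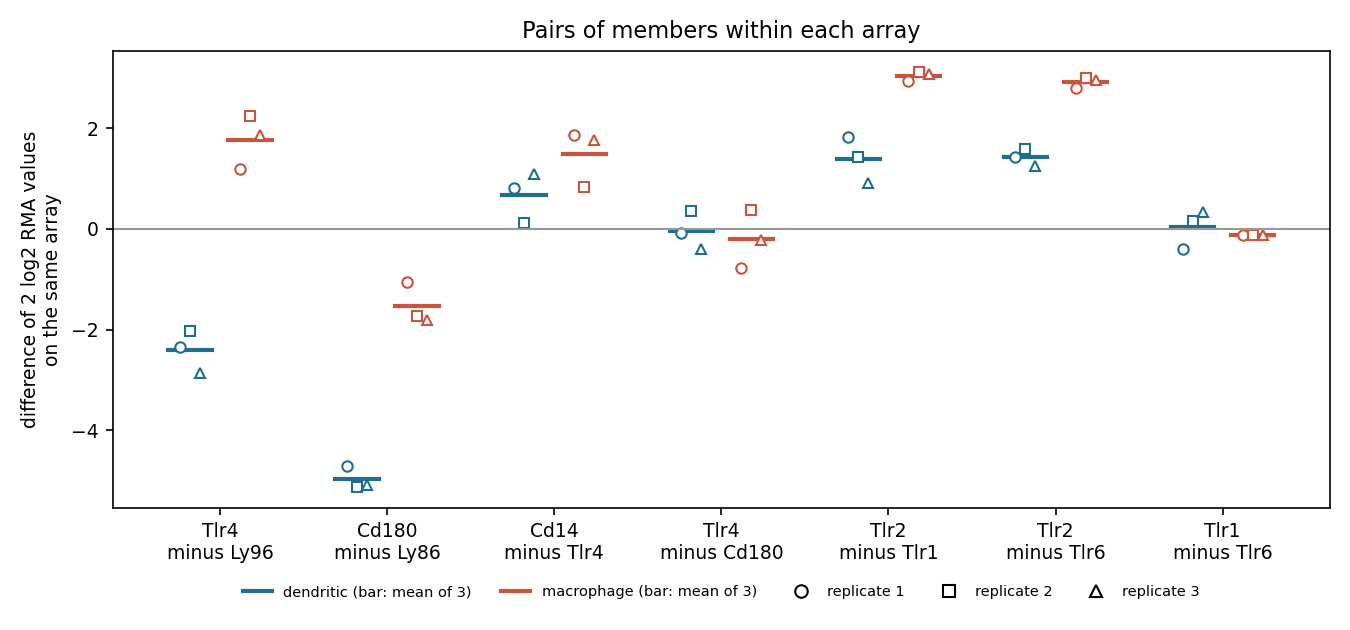
Difference of 2 members' log2 RMA values on the same array (vertical axis) for 7 pairs, with dendritic arrays left of macrophage arrays, symbols for the replicate number and bars for the mean of 3. The populations are apart for Tlr4 minus Ly96, Cd180 minus Ly86, Tlr2 minus Tlr1 and Tlr2 minus Tlr6, and overlap for the other pairs.

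Within the macrophage population, replicate 1 held the highest value for 7 of the 8 members, all but Tlr4. Replicate 1 also had the highest mean level of a list of 8 neutrophil genes, in both populations: 7.68 on dendritic replicate 1, with 6.97 and 6.64 on the other dendritic arrays, and 7.90 on macrophage replicate 1, with 6.76 and 6.83 on the other macrophage arrays. Of that list 1 gene, the granule peroxidase Mpo, was lower in the dendritic population, and the others were not called. The part of such cells in the members' values was not tested. Leaving out replicate 1 does not test it, because some genes of the list stayed bright. On the other arrays the list ran from Ly6g, at 3.33 to 3.62, to S100a8, at 9.65 to 10.46. Without replicate 1 of both populations the same 7 members were called lower. The differences were -4.66 for Cd14, -3.97 for Tlr4, -3.87 for Cd180, -2.94 for Tlr2, -1.39 for Tlr6, -1.02 for Tlr1 and -0.53 for Ly86. B cells are another cell type known to carry CD180 with MD-1. The mean level of 5 B cell genes was 4.17 to 4.37 in dendritic and 3.82 to 4.14 in macrophage arrays. That mean was below the median of all probe sets on every array, but not each gene was. Cd79b, at 5.56 in dendritic and 5.45 in macrophage arrays, and Pax5, at 5.16 and 5.04, lay above the medians. Cd79a, Ms4a1 and Ebf1 lay below them. Of the list 1 gene was higher in the dendritic population (Cd79a, 3.95 in dendritic against 3.14 in macrophage arrays). No gene was called in the lists of 6 mast cell and basophil, 4 plasmacytoid dendritic or 6 T and NK cell genes.

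For each member the genes with the most similar profile were found by the root mean square difference of the log2 values on the 6 arrays, after each gene was centred on its own mean. With 2 populations, this measure weighs the size of the population difference most, and the 6 arrays are shared by all genes. Nearest to Tlr4 were Cd200r1 (0.144) and Pld4 (0.196), to Cd14 the genes Ly6e (0.176) and Cd300c2 (0.213), and to Cd180 the chemokine receptor Ccr1 (0.124) and Cd300ld (0.126). Nearest to Tlr2 were the chemerin receptor Cmklr1 (0.125) and Ecm1 (0.138). Tlr6 was nearest to Cd302 (0.0896) and C1ra (0.117), and Tlr1 to Sh3tc1 (0.138) and Plpp3 (0.152). Ly86 was nearest to Zfp395 (0.0426) and Dcun1d3 (0.0526), and Ly96 to Mbip (0.113) and Nab1 (0.123).

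The other genes of the pathway were followed in lists by role. Their counts stand beside the 9.98% of all genes called higher and the 11.6% called lower. In lists of this size, a count as low as 2 in a direction cannot be set apart from these shares. Beside the receptors at the surface, LPS is also handled by transfer proteins, integrins and enzymes, and 5 of 8 such genes were lower in the dendritic population. No such gene was called higher, and the median difference was -2.63. Itgam, the alpha chain of complement receptor 3, was at 5.12 ± 0.43 in dendritic and 10.35 ± 0.08 in macrophage arrays (SD, n = 3 each; limma adjusted p = 5.54e-07). Aoah, the enzyme that inactivates LPS by removing acyl chains, was at 3.51 ± 0.15 in dendritic and 8.32 ± 0.56 in macrophage arrays (adjusted p = 2.40e-06). Casp4, which encodes the mouse cytosolic LPS sensor caspase-11, was at 7.06 in dendritic and 7.23 in macrophage arrays and was not called (difference -0.17 ± 0.20, SE; adjusted p = 0.690).

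Of 5 chaperones and carriers of the receptors, 4 were called lower and the other was not called (median -0.89). Unc93b1, which escorts endosomal receptors and also TLR5, differed by -2.33 ± 0.16 (SE; limma adjusted p = 1.34e-05). Hsp90b1, the chaperone gp96 that folds most Toll-like receptors, differed by -1.09 ± 0.16 (adjusted p = 0.00108). Cnpy3, its partner in folding these receptors, was at 8.84 in dendritic and 8.68 in macrophage arrays and was not called (adjusted p = 0.570).

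Among the adaptors that bind TIR domains and their partners, 3 of 6 were lower and no gene was higher (median -0.84). Pik3ap1, the adaptor BCAP that links the receptors to PI 3-kinase, differed by -2.17 ± 0.19 (SE; limma adjusted p = 5.64e-05). Ticam2 (TRAM), which couples TLR4 to TRIF, differed by -1.42 ± 0.17 (adjusted p = 0.000329), and Myd88, the adaptor of nearly all the receptors, by -1.26 ± 0.18 (adjusted p = 0.000901). Ticam1, which encodes TRIF, was at 7.50 in dendritic and 7.64 in macrophage arrays, and Tirap, the bridge from TLR2 and TLR4 to MyD88, was at 5.53 in dendritic and 5.96 in macrophage arrays. Neither was called (adjusted p = 0.822 and 0.0732), although Tirap was called with array weights (adjusted p = 0.0403).

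Further down, genes were called in both directions, some of them in numbers near the shares over all genes. Of 13 kinases and ubiquitin enzymes next to the receptor, 4 were higher and 2 lower, with a median of 0.06. Traf6, the ubiquitin ligase on which the MyD88 branch converges, was at 8.29 ± 0.02 in dendritic arrays, against 6.56 ± 0.07 in macrophage arrays (SD, n = 3 each), or 3.32-fold higher (limma adjusted p = 1.00e-05). Peli1, a ligase that acts on IRAK1 and in the TRIF branch, was higher by 1.25 ± 0.23 (SE; adjusted p = 0.00371). Its relative Peli2 was lower, at -1.61 ± 0.21 (adjusted p = 0.000464), as was the kinase Btk, at -0.88 ± 0.17 (adjusted p = 0.00473). The higher genes numbered 2 when dendritic replicate 3, macrophage replicate 2 or macrophage replicate 3 was left out.

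Of 9 downstream kinases and transcription factors, 2 were higher and 2 lower, with a median of 0.22. These counts are too small to set apart from the shares over all genes. The kinase Ikbkb (0.93 ± 0.13, SE; limma adjusted p = 0.000855) and the NF-kB subunit Rela (0.69 ± 0.13; adjusted p = 0.00484) were higher. Ikbke (-1.90 ± 0.17; adjusted p = 6.21e-05) and Tbk1 (-0.39 ± 0.12; adjusted p = 0.0448), related kinases that activate interferon regulatory factors, were lower. Tbk1 was no longer called after removal of any array other than dendritic replicate 1 (adjusted p over the alternatives, 0.0112 to 0.163), and with array weights 4 genes were higher.

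Inhibitors of the pathway were more often called higher than lower. Of 15 measured, 8 were higher and 2 lower, with a median of 0.70. Tnfaip3, the ubiquitin-editing enzyme A20, was at 8.50 ± 0.22 in dendritic and 6.71 ± 0.28 in macrophage arrays (SD, n = 3 each; limma adjusted p = 9.66e-05), and the decoy-like receptor Sigirr was at 6.65 ± 0.18 in dendritic and 5.33 ± 0.04 in macrophage arrays (adjusted p = 0.000116). Irak3 (IRAK-M), a kinase-like inhibitor of IRAK complexes, was the largest exception, at 6.19 ± 0.41 in dendritic and 8.36 ± 0.27 in macrophage arrays (adjusted p = 0.000120). The other lower gene was the phosphatase Inpp5d (SHIP1), at -0.44 ± 0.12 (SE; adjusted p = 0.0259). It was no longer called after dendritic replicate 3 or any 1 macrophage array was removed (adjusted p over the alternatives, 0.0103 to 0.0930).

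Genes that Toll-like receptors induce after a stimulus, some sooner than others, were called in both directions in these unstimulated cells. Of 13 measured, 5 were higher and 3 lower, with a median of 0.02. Il12b, the p40 chain of interleukins 12 and 23, was at 9.80 ± 0.39 in dendritic and 4.61 ± 0.23 in macrophage arrays (SD, n = 3 each; limma adjusted p = 6.46e-07), and Ccl5 was at 12.59 ± 0.11 in dendritic and 7.83 ± 1.16 in macrophage arrays (adjusted p = 9.33e-05). In the other direction, the chemokine Ccl3 was at 5.05 ± 0.31 in dendritic and 8.72 ± 0.53 in macrophage arrays (adjusted p = 1.49e-05), the inflammatory cytokine Il1b differed by -3.37 ± 0.31 (SE; adjusted p = 6.38e-05) and the chemokine Ccl4 by -1.01 ± 0.19 (adjusted p = 0.00416). Tnf was at 5.52 in dendritic and 6.26 in macrophage arrays and was not called (adjusted p = 0.0617). Without macrophage replicate 3 the lower genes numbered 5, with Tnf (-0.998) and the chemokine Cxcl2 (-3.17) added. Cxcl2 was at 9.05, 7.74 and 5.35 on the macrophage arrays, so the last of these lay within the dendritic range of 4.52 to 6.12.

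**Figure D4:**
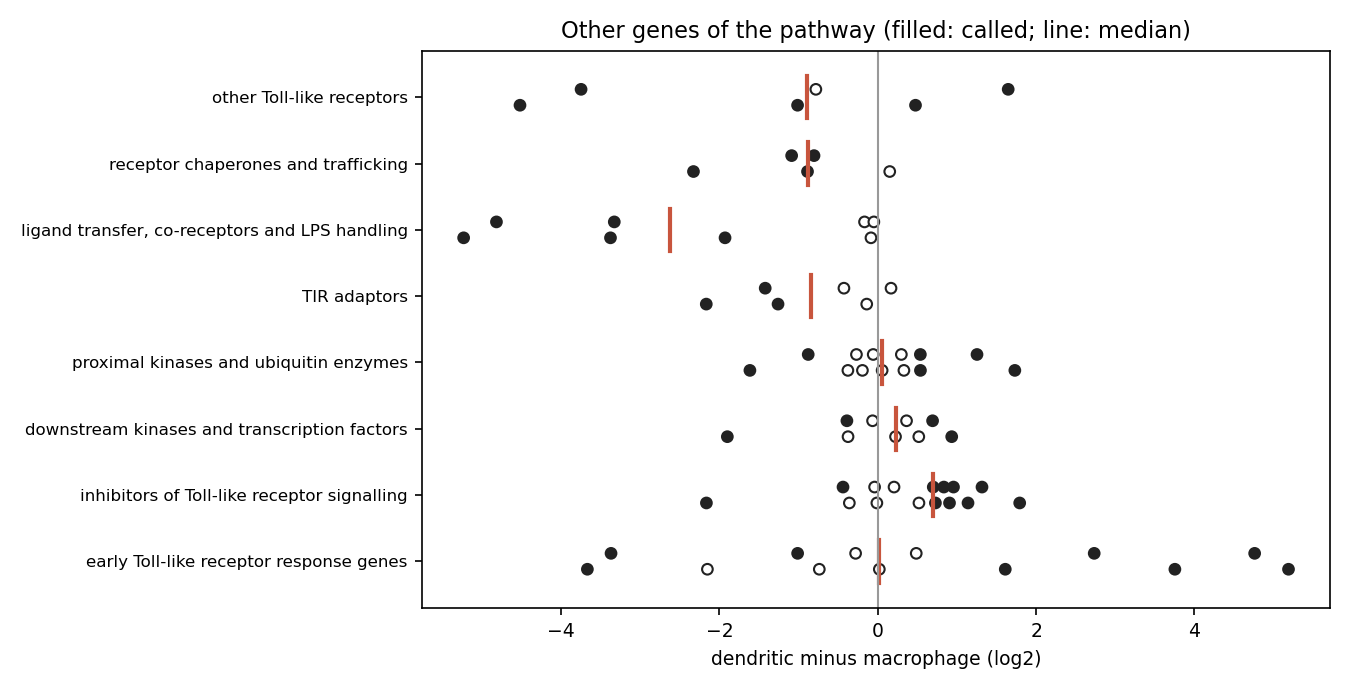
Dendritic minus macrophage difference on the log2 scale (horizontal axis) of the other genes of the pathway, by role. Each point is a gene, filled where called, and the line is the median of the list. The medians run from -2.63 for ligand transfer and LPS handling to 0.70 for inhibitors.

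The remaining Toll-like receptors, mostly endosomal, were mixed. Of 6 measured, 3 were lower and 2 higher, with a median of -0.90. The RNA sensors Tlr7 (-4.52 ± 0.15, SE; limma adjusted p = 3.24e-07), Tlr8 (-3.75 ± 0.36; adjusted p = 8.79e-05) and Tlr13 (-1.01 ± 0.19; adjusted p = 0.00473) were lower, and the profilin receptor Tlr12 (1.65 ± 0.32; adjusted p = 0.00519) and the DNA sensor Tlr9 (0.48 ± 0.13; adjusted p = 0.0293) were higher. Tlr9 was no longer called after removal of any array other than dendritic replicate 1 (adjusted p over the alternatives, 0.0162 to 0.0999). Tlr3, the sensor of double-stranded RNA, was at 3.49 in dendritic and 4.28 in macrophage arrays and was not called (adjusted p = 0.0529). Both means lay below the medians of all probe sets. Its call depended on the processing, and it passed in 6 of 14 alternatives. Among these were the fit blocked on replicate number (adjusted p = 0.0111) and that without macrophage replicate 3 (adjusted p = 0.00239).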

How the data were processed

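The deposited log2 values cover 35556 probe sets on each array. According to the submitters' processing notes, the authors used RMA in R 3.0.2. The sources used here do not name the arrays normalized together or the probe set definition. Gene symbols came from GEO's annotation of the platform, and 21789 probe sets held exactly 1 symbol. Several symbols were held by 1621, and 12146 stayed unnamed. Symbols were checked through the Entrez identifier in RefSeq (GRCm38.p6), where 21698 matched and 0 changed. Of several probe sets per gene (999 genes), the one with the highest mean over 6 arrays was used, which left 19938 genes.

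limma 3.58.1 in R 4.3.3 (lmFit and eBayes, 2-sided, population as the only term) was fitted on all genes. It was also tested on simulated data in which 200 of the 19938 genes were changed. There it called 4 of 67 genes with a true log2 difference of 0.5, 37 of 67 with 1 and 60 of 66 with 2. Only 106 genes were called there, against 4312 in the data, so the adjustment for many tests was stricter. These shares therefore do not give the sensitivity in the data. A gene that was not called may still differ by a small amount. Figures and tables used Python 3.11.15 with pandas 2.3.3 and matplotlib 3.10.9. Partner differences used exact permutation tests. Precision is limited by having 3 arrays per population.

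The members and lists were chosen with earlier results of these data known. The genes named are the members, up to 2 called genes of each list with the largest difference in each direction, all where 3 or fewer were called in a direction, and the 2 genes nearest to each member. Tlr3, Tnf, Cxcl2, Tirap, Ticam1, Casp4 and Cnpy3, which were not called, and the marker genes named were picked after their values were seen.

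To see whether replicate numbers pair the arrays, each array's deviation from its population mean was correlated, over genes, with that of its namesake in the other population. The correlations were 0.385, 0.147 and 0.272 for numbers 1, 2 and 3, all above the limit of 0.1 set for pairing, although no label explains the numbers. Some unlike numbers passed it too, with 0.155 for dendritic 2 with macrophage 3 and 0.128 for dendritic 3 with macrophage 2. The remaining unlike pairs were negative. Dendritic 2 was thus no closer to its namesake than to macrophage 3, and whether the numbers pair the arrays stays unclear. Because the namesakes passed the limit, a blocked fit was run beside the unblocked one. The other alternatives left out each array or number 1 of both populations, normalized by quantiles again, centred on the 75th percentile, removed genes under the 30th or 50th percentile of level, used array weights or an intensity trend, tested all probe sets, or averaged the probe sets of a gene.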

Additional observations from a re-analysis of the deposited data

How the results depend on the processing

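The 7 members called lower were called in all 16 alternatives. The number called higher was 0, and ranged from 0 to 1 when 1 array was left out. It was also 1 without number 1 of both populations, and the gene was Ly96 in both cases. Ly96 ranged from -0.00885 (without macrophage replicate 3) to 0.527 (without macrophage replicate 1). With the replicate block Ly96 differed by 0.21 (limma adjusted p = 0.530) and Cd14 by -4.77 (adjusted p = 1.46e-06). Among the members and the named pathway genes, the block changed the call of Tlr3 alone. With 1 array left out, Tlr4 minus Cd180 ranged from -0.117 to 0.456, and was also below 0 (-0.0320) without dendritic replicate 2. Among genes that were not called, Ticam1 ranged from -0.397 to 0.0632 (without dendritic replicate 1), with 0.0441 without macrophage replicate 3, and Casp4 turned to 0.0210 without number 1 of both populations. The causes were not tested. Il6 and Tlr3 have no value where the filter on level removed them. Dim values limit the differences of Tlr4, Cd180, Tlr1 and Tlr6, whose dendritic means lay at 4.58 to 4.86, within or below the range of the arrays' medians.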
